A study of Mus musculus with 19 samples.

Results

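Transcript levels in 13-month-old mice of the HEM line were compared with those of age-matched WT controls. The comparison used 12 libraries of 19 in the series, 8 HEM and 4 WT, each from a separate mouse. It covered 23242 genes of 49671 in the deposited tables, those with a value of 10 or more in at least 3 of the 12 libraries. HEM mice carry a transgene on the X chromosome in which the mouse Thy-1 promoter drives a full-length human protein of wild-type sequence. WT mice are the controls without it, and both share the B6D2F1/J background. RNA came from brain homogenate enriched for microglia, not from sorted single cells. The younger mice of the series, 4 HEM and 3 WT at 3 months, entered the fit and are used for comparison only. Values are reads per gene divided by a size factor of the library, called values here, and differences are HEM minus WT on the log2(value + 1) scale with their standard error. Libraries are named by genotype and the animal number in their titles, HEM 1, 3, 4, 7, 8, 11, 12 and 13 and WT 6, 7, 8 and 9.

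The Thy-1 promoter used in such mice is active mainly in neurons. Microglia, the resident macrophages of the brain, take up material released by neurons and answer it with cytokines, chemokines and changes in metabolism. Neurons, glia and macrophages draw much of their ATP from the mitochondrial respiratory chain, whose subunits are encoded mostly in the nucleus and in small part in the mitochondrial genome. A brain homogenate holds other cell types besides microglia, so markers of blood, choroid plexus and other brain cells were listed as well.

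The labelled microglia were present in all 12 libraries. P2ry12, a purinergic receptor of microglia, ranged from 35724 to 117112 in HEM and from 60692 to 96335 in WT, and Tmem119 and Cx3cr1, other markers of these cells, lay between 29818 and 222403. The 20 homeostatic microglia markers made up 1.46% (HEM 12) to 3.59% (HEM 11) of all values in HEM and 2.15% to 3.07% in WT, and none was at 0 in any library. The 16 choroid plexus markers made up 2.47% (HEM 3) to 4.36% (HEM 8) in HEM and 5.71% to 6.46% in WT, so the groups did not overlap. The 16 markers of mature neutrophils made up 0.0890% to 0.729% in HEM and 0.0518% to 0.143% in WT. In such bulk samples, fewer cells of a type and less RNA per cell cannot be told apart. All 12 libraries held transcripts of the Y chromosome: Ddx3y ranged from 8549 to 9821 in HEM and from 8776 to 10109 in WT, and Xist was at most 77.4. The depth was 63.3 to 95.8 Mreads (1e6 reads in genes) in HEM (75.3 ± 13.0, SD, n = 8) and 93.2 to 124.5 Mreads in WT (110.7 ± 14.9, SD, n = 4), a difference with p = 0.00808 in a two-sided exact permutation test. With all libraries thinned to the shallowest, 2923 genes were called in the comparison below, against 2956 without thinning.

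At 13 months, 2956 genes, 12.7% of those tested, differed between the genotypes at an adjusted p under 0.05 in limma-trend with Benjamini-Hochberg adjustment. Of these, 1777 were lower in HEM (7.65% of tested genes) and 1179 were higher (5.07%). The lower genes fell by modest amounts, with a median of -0.50, while the higher genes had a median of 1.03. At least 2-fold differences were seen for 616 higher and 143 lower genes, and at least 4-fold differences for 127 and 4. The lower genes were also the more abundant, with a median level of 11.88 on the log2 scale against 9.81 for the higher genes and 9.39 for all tested genes. All 8 HEM libraries lay above all 4 WT libraries for 643 genes (2.77%) and below them for 953 genes (4.1%), 6.87% in all. The median difference of all tested genes was 0.03.

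**Figure D1:**
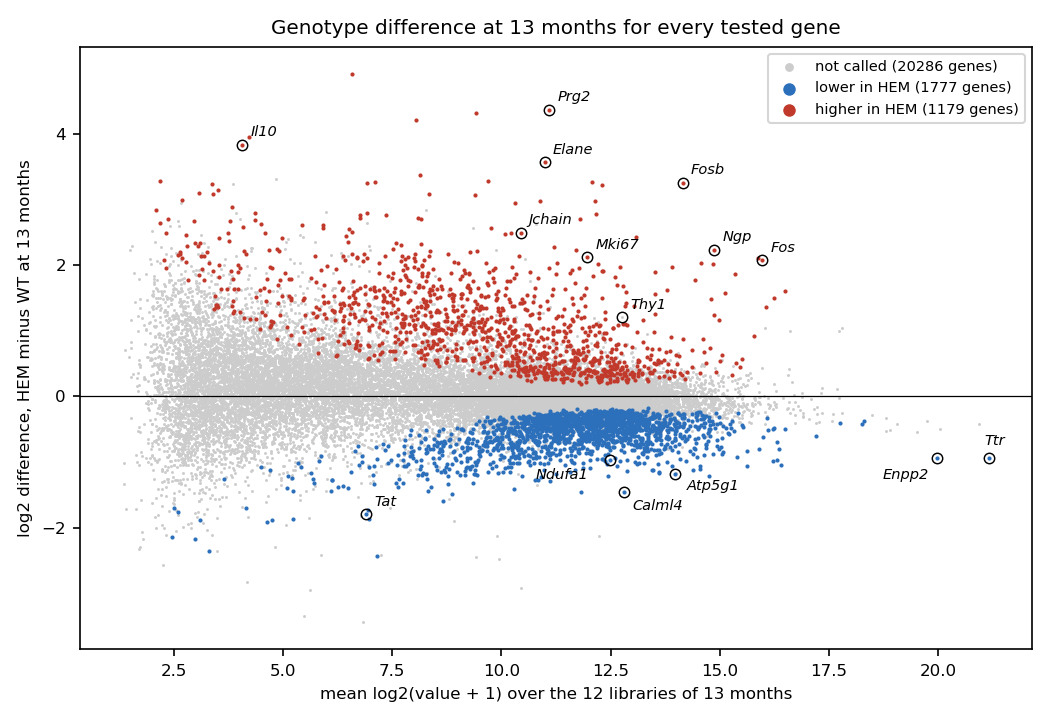
Each point is 1 of the 23242 tested genes, with its mean level over the 12 libraries on the horizontal axis (log2(value + 1)) and its difference between the genotypes, HEM minus WT, on the vertical axis (log2). Blue points are the 1777 genes called lower and red points the 1179 called higher in HEM, grey points were not called, and circles mark named genes. The blue points lie mostly within 1 log2 unit of 0 and to the right, and the red points reach higher and lie further left.

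The number of calls moved with single WT libraries and with the levels of 2 other kinds of cell material. Leaving out WT 7, WT 8 or WT 9 gave 1758, 1859 and 1729 calls, while leaving out HEM 7 gave 3337. With the mean level of neutrophil and erythroid markers of each library as a covariate, 0 genes were called (2496 at an unadjusted p under 0.05). This level was 11.80 to 13.65 in HEM and 10.80 to 11.83 in WT. Of the 2956 called genes, 2858 kept their sign in that fit and 1614 had an unadjusted p under 0.05, and the median size of their difference went from 0.61 to 0.44. With the choroid plexus level as the covariate, an alternative chosen after seeing the data, 0 genes were called as well (2119 at an unadjusted p under 0.05). That level was 13.99 to 14.94 in HEM and 15.17 to 15.50 in WT, without overlap. Both levels follow the genotype closely, which widens standard errors (for Ndufa1 from 0.10 to 0.16 with the neutrophil and erythroid level). These fits cannot separate the levels from the genotype, so their loss of calls does not show what the calls rest on. The lists of genes below are therefore given by their calls in the fit without a covariate, and for many of them the median with one or both of these levels in the model is given as well.

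**Figure D2:**
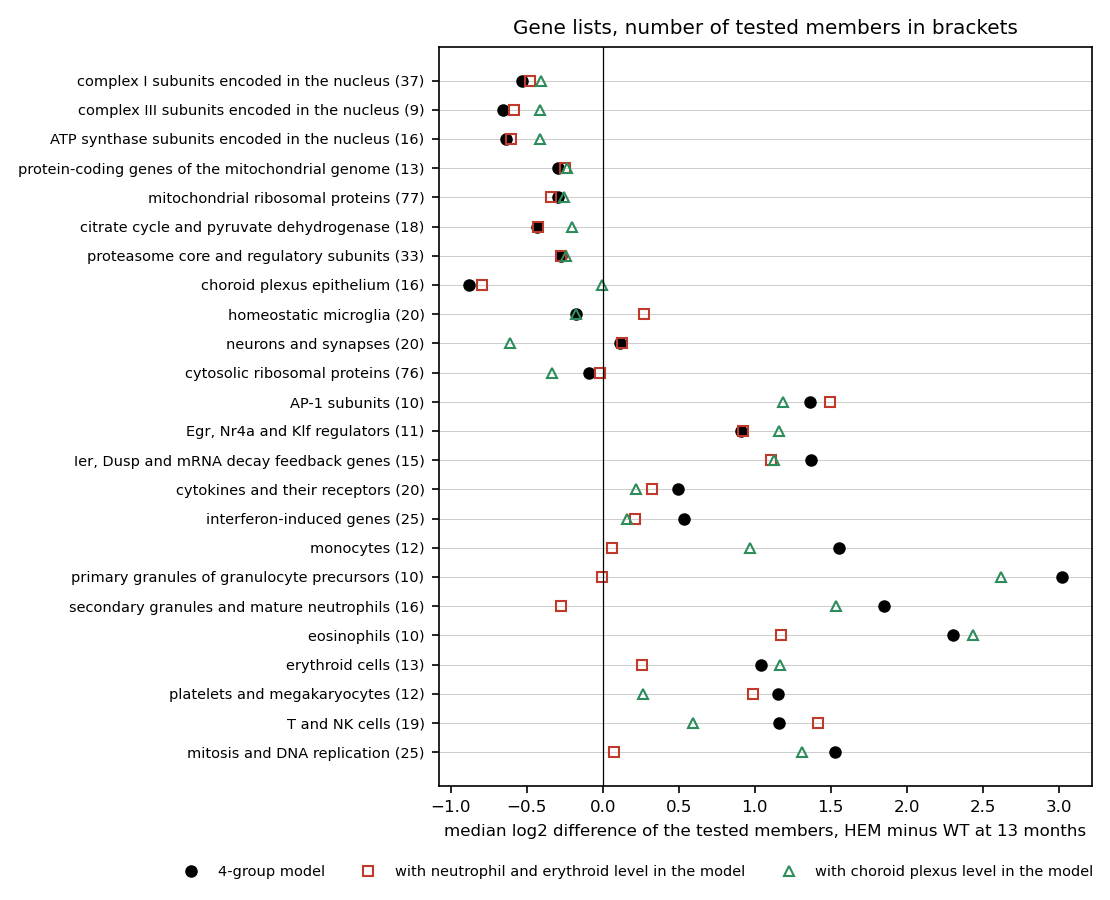
For 24 gene lists, the horizontal axis gives the median difference between the genotypes over the tested members (log2, HEM minus WT). Black points are from the fit of the 4 groups, red squares from the fit with the neutrophil and erythroid level and green triangles from the fit with the choroid plexus level. The respiratory lists stay below 0 and the immediate early lists above 0 in all 3 fits, while the granule and mitosis lists reach 0 with the neutrophil and erythroid level and the choroid plexus list reaches 0 with its own. The neutrophil and erythroid level is made from the mature neutrophil and erythroid lists themselves.

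Thy1, a surface glycoprotein of neurons and T cells whose promoter the transgene uses, was read first. Its values in HEM ran from 5205 (HEM 4) through a median of 6634 to 37356 (HEM 3), and in WT they were 3768, 7909, 3578 and 2362. The groups overlapped, through WT 7, and the difference of 1.20 ± 0.49 did not pass (adjusted p = 0.125). At 3 months Thy1 was 18306 to 51370 in HEM (n = 4) and 3367 to 10886 in WT (n = 3), without overlap. The table counts mouse genes, and the human transgene was not analysed here.

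The respiratory chain was lower in HEM through all of its nuclear-encoded parts. Among 37 subunits of complex I, which takes electrons from NADH, 36 fell, with a median of -0.53 over the 37 and a range from -0.97 to -0.34. The exception was Ndufb4 at -0.36 ± 0.12 (adjusted p = 0.0616), named here, as are Cox7a2l and Cs, after its values were seen. All 4 subunits of complex II fell (median -0.52), all 9 of complex III (median -0.66), 11 of 12 of complex IV (median -0.62) and all 16 tested subunits of ATP synthase (median -0.64). In complex IV the exception was Cox7a2l, which takes part in assembling complexes into larger units, at -0.04 ± 0.17. These shares stand beside the 7.65% of all tested genes that were lower. With the neutrophil and erythroid level in the model the medians were -0.48, -0.43, -0.58, -0.53 and -0.60 for complexes I to IV and ATP synthase, and with the choroid plexus level they were -0.40, -0.36, -0.41, -0.50 and -0.41.

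Ndufa1, an accessory subunit of the membrane arm of complex I, had the smallest p of all genes. It lies on the X chromosome (mm10 chrX:37187588-37191163). Its values were 3972 (HEM 11) to 5734 (HEM 7) in HEM, with a median of 4529, and 7523, 10518, 8966 and 9210 in WT. No HEM library reached a WT library, and the difference was -0.97 ± 0.10 (adjusted p = 0.000557), between -1.05 and -0.89 with any 1 library left out. With the neutrophil and erythroid level it was -0.84, and with the choroid plexus level -0.73. Ndufb11, another X-linked subunit, ran from 9271 to 11966 in HEM and was 13312, 19079, 16400 and 16733 in WT, again with no overlap and a difference of -0.66 ± 0.09, and 12.9% of its exon bases overlap another gene. Ndufs3, a core subunit that lies on an autosome, fell by 0.55 ± 0.08 on the log2 scale.

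In complex II, Sdha, the catalytic subunit that oxidizes succinate, had values of 22565 to 30384 in HEM, with a median of 24313, and of 31905, 37107, 34935 and 37328 in WT. HEM 7 stood nearest to WT without reaching it, and the difference was -0.52 ± 0.08. Sdhc, which anchors the complex in the membrane, fell by 0.66 ± 0.10. In complex III, Uqcr11 had values of 6578 to 10461 in HEM and of 10708, 17496, 13941 and 15070 in WT, a difference of -0.79 ± 0.12. Uqcrh, which sits next to cytochrome c1, fell by 0.66 ± 0.11. In complex IV, Cox6c ran from 9116 to 14071 in HEM and was 15722, 19450, 16780 and 19736 in WT, with a difference of -0.72 ± 0.11. Cox8a fell by 0.78 ± 0.13, with overlap of the groups, since HEM 7 at 29164 lay above WT 6 at 27750.

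ATP synthase held the largest difference among these lists. Atp5g1 encodes the c subunit of the rotating ring and lies at mm10 chr11:96068852-96075670. Its values ran from 9214 (HEM 3) through a median of 11656 to 19467 (HEM 7), against 19809, 35017, 27372 and 30778 in WT. HEM 7 and WT 6 were close to each other without overlap, and the difference was -1.18 ± 0.17. Atp5h, a subunit of the peripheral stalk, ran from 10746 to 17813 in HEM and was 20855, 21862, 23318 and 23794 in WT, a difference of -0.82 ± 0.11. Atp5l, which encodes subunit g in the membrane part, ran from 2981 to 4862 in HEM and was 5457, 7369, 6561 and 5790 in WT, a difference of -0.73 ± 0.12.

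Respiratory chain genes are known to be served by NRF1 and ETS family factors, whose core motifs were searched as GCGCATGC and CCGGAAG. The promoter of Atp5l is shown as an example that was picked, among the called subunit genes, for holding both motifs. It covers the 250 bases before the start of the gene in RefSeq on build GRCm38.p6, chr9:44920743-44920992, on the minus strand, written 5′ to 3′ with the matches in capitals.
Atp5l: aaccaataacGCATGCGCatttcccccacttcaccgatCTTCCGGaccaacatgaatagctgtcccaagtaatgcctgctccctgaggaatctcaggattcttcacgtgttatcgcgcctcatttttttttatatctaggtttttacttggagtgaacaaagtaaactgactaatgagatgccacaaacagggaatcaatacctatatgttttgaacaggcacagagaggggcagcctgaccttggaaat
Both matches read on the opposite strand, with first bases at -240 and -212, and they do not overlap. Of the 77 nuclear-encoded subunits (Ndufa4 stands in the lists of both complex I and complex IV) 64 had a promoter in the table, and 8 of these (12.5%) held GCGCATGC on either strand, against 4.08% of the 14425 tested genes with a promoter. CCGGAAG was found in 12 of the 64 (18.8%) against 12.4%. Among all genes called lower the shares were 5.85% and 16.0%, and among those called higher 4.59% and 11.9%. The motifs were chosen with the results known, and a match describes letters, not binding.

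The 13 protein-coding genes of the mitochondrial genome did not share the calls of their nuclear partners. None was called by limma, and none had an unadjusted p under 0.05, nor was any called by edgeR, DESeq2 or limma voom. Their median was -0.29, with 12 of 13 below 0. mt-Nd4, a core subunit of complex I, ran from 221105 (HEM 13) to 840605 (HEM 7) in HEM, with a median of 405535, and was 547856, 819340, 528254 and 499575 in WT. The groups overlapped widely, and the difference was -0.52 ± 0.28 (adjusted p = 0.262).

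Other mitochondrial genes of the nucleus were lower as well. Of 77 mitochondrial ribosomal proteins 38 fell (median -0.29), of 18 genes of the citrate cycle and pyruvate dehydrogenase 17 fell (median -0.43), and of 18 import translocases 10 fell (median -0.28). Mrps12, of the small mitochondrial ribosomal subunit, ran from 2150 to 2679 in HEM and was 3084, 4116, 3417 and 3430 in WT, a difference of -0.52 ± 0.09. Mrpl58, which releases stalled peptides, fell by 0.68 ± 0.12, with HEM 7 at 4479 above WT 6 at 4120. Idh3a, the catalytic subunit of NAD-dependent isocitrate dehydrogenase, ran from 6808 to 13322 in HEM and was 12291, 19270, 16147 and 16124 in WT, a difference of -0.79 ± 0.14. Only HEM 7 reached the WT range for it. Pdhb, of the pyruvate dehydrogenase core, fell by 0.46 ± 0.08, while Cs, which makes citrate, had a difference of -0.24 ± 0.09 that did not pass (adjusted p = 0.105). Timm13 of the intermembrane space and Tomm7 of the outer membrane translocase fell by 0.65 ± 0.10 and 0.70 ± 0.11. Clybl, a mitochondrial lyase that clears citramalyl-CoA, fell by 0.85 ± 0.11, with HEM values of 1508 to 2229 and WT values of 2630, 3596, 3197 and 3142. The citrate cycle median was -0.43 with the neutrophil and erythroid level as well and -0.20 with the choroid plexus level.

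**Figure D3:**
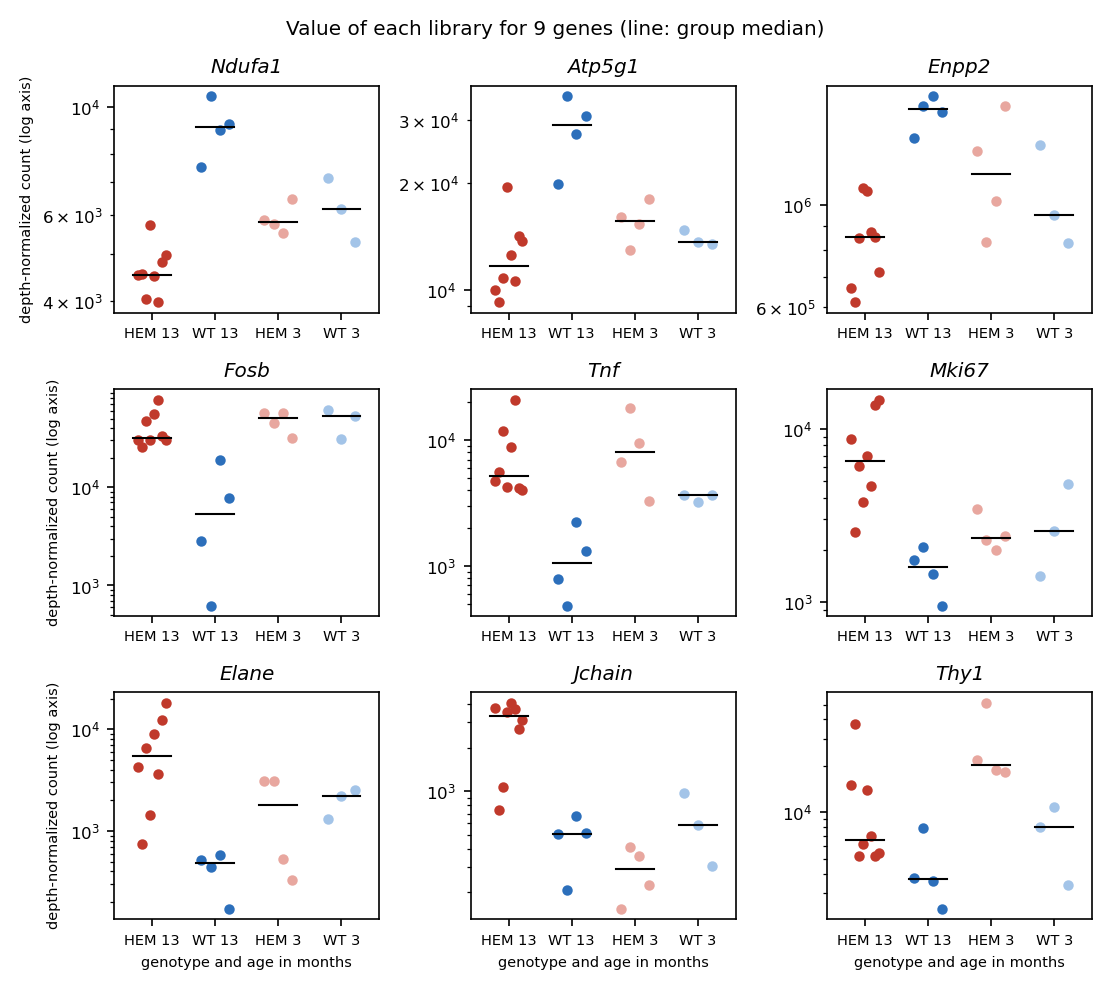
For 9 genes, each point is the value of 1 library (depth-normalized count, log axis) in HEM and WT at 13 and at 3 months, and the black line is the median of the group. WT libraries at 13 months lie above the other groups for Ndufa1 and Atp5g1 and below the other groups for Fosb and Tnf. The HEM libraries at 13 months reach the highest values for Mki67, Elane and Jchain, and the Thy1 groups overlap at 13 months.

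The transgene lies on the X chromosome, so the genes around Ndufa1 were listed. Within 1 Mb of it 25 genes were tested, of which 4 were lower, Ndufa1 included, and 1 was higher. Of all tested genes 7.65% were lower and 5.07% higher. Slc25a5, which encodes an ADP/ATP carrier of the inner mitochondrial membrane, fell by 0.49 ± 0.11. Pgrmc1, a heme-binding membrane protein, fell by 0.35 ± 0.09, with values of 18846 to 23684 in HEM and 26333, 27375, 29580 and 24064 in WT. Akap17b fell by 0.44 ± 0.13 and kept its call in 8 of the 12 fits that left out a library, and Sept6, a septin of the cytoskeleton, rose by 0.53 ± 0.13. The nearest tested genes on either side did not pass. Rnf113a1 stood at -0.07 ± 0.15 on one side, and Akap14 at 0.90 ± 0.60 and Nkap at 0.12 ± 0.08 on the other. On the X chromosome as a whole 10.6% of 748 tested genes were lower and 4.28% were higher. Chromosome 19 had 10.2% lower and chromosome 3 had 5.36%. The place of the transgene on the X chromosome was not analysed here.

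**Figure D4:**
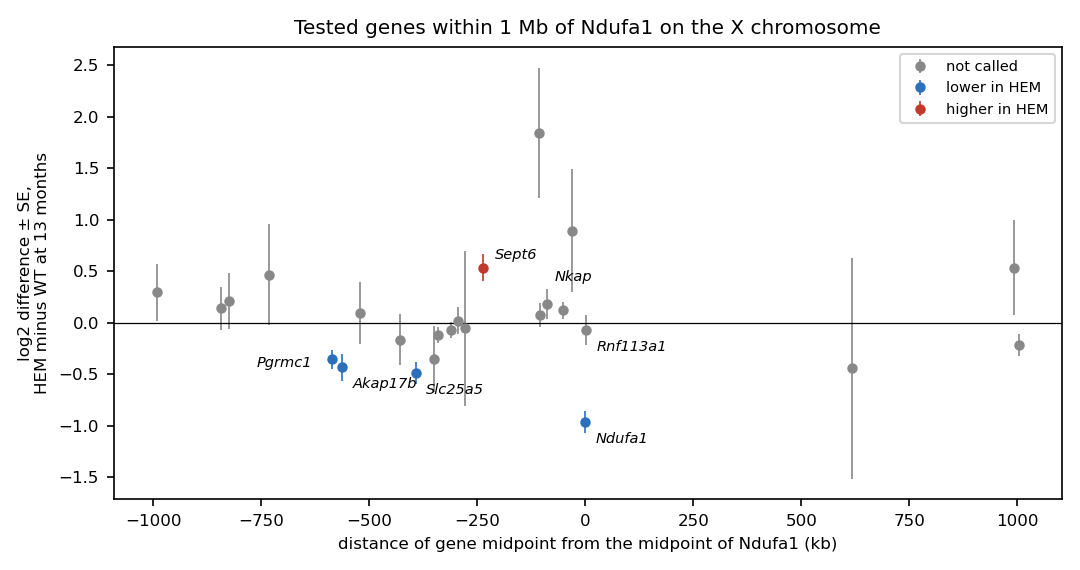
Each point is 1 of the 25 tested genes within 1 Mb of Ndufa1, placed by the distance of its midpoint from that of Ndufa1 (kb), with its difference between the genotypes and standard error (log2, HEM minus WT at 13 months). Blue genes were called lower and the red gene higher in HEM. Ndufa1 at -0.97 stands below the nearby genes Nkap at 0.12 and Rnf113a1 at -0.07.

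Glycolysis and antioxidant genes moved with the respiratory chain. Of 19 glycolysis genes 10 fell and 1 rose, with a median of -0.40 (-0.43 with the neutrophil and erythroid level, -0.28 with the choroid plexus level). Ldhb, the lactate dehydrogenase subunit common in oxidative tissue, ran from 36294 to 55340 in HEM and was 63250, 81374, 67327 and 90207 in WT, a difference of -0.83 ± 0.12. The groups did not overlap. Tpi1, triosephosphate isomerase, fell by 0.58 ± 0.11. The gene that rose was Slc2a3, a glucose transporter of neurons and blood cells, at 1.22 ± 0.20, which was 0.45 with the neutrophil and erythroid level. Of 21 antioxidant genes 11 fell (median -0.30). Gpx4, which reduces lipid peroxides, ran from 19197 to 28218 in HEM and was 29892, 43994, 38642 and 37719 in WT, a difference of -0.73 ± 0.10. Sod1 of the cytosol and Sod2 of the mitochondrial matrix fell by 0.65 ± 0.11 and 0.66 ± 0.11.

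Protein turnover lists were lower to different degrees, where 7.65% of all tested genes were lower. Of 33 proteasome subunits 20 fell, with a median of -0.28 and 32 of 33 below 0. Psmc3, an ATPase of the regulatory cap, ran from 11239 to 13260 in HEM and was 13613, 17803, 15217 and 17008 in WT, a difference of -0.42 ± 0.07. Psmb4 of the core fell by 0.45 ± 0.08. Of 22 subunits of the vacuolar proton pump, which acidifies lysosomes, 10 fell (median -0.24), among them Atp6v1g1 at -0.45 ± 0.08 and Atp6v1f at -0.50 ± 0.09. Of 27 lysosomal hydrolases and membrane proteins 7 fell (median -0.28, and -0.03 with the neutrophil and erythroid level). Psap, the precursor of the saposins that help degrade sphingolipids, ran from 249096 (HEM 12) to 338573 (HEM 11) in HEM and was 345489, 393366, 344631 and 460175 in WT, a difference of -0.43 ± 0.11. Gaa, acid alpha-glucosidase, fell by 0.43 ± 0.11, with groups that overlapped.

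Autophagy and chaperone genes held few calls. Of 21 autophagy genes 3 fell (median -0.11, 14.3% lower against 7.65% of all tested genes). Map1lc3a, an LC3 protein of the autophagosome membrane, ran from 8375 to 14525 in HEM and was 14176, 22438, 18219 and 22126 in WT, a difference of -0.88 ± 0.13. Gabarapl1, of the same protein family, fell by 0.44 ± 0.09, and 28.3% of its exon bases overlap other genes. Of 18 heat shock chaperones 2 fell (11.1%, median -0.19, or -0.43 and 0.0373 with the 2 covariates), Hspa9 of the mitochondrial matrix by 0.33 ± 0.09 and the small heat shock protein Cryab, with 17.0% of its exon bases overlapped, by 0.79 ± 0.21. The other list of cellular stress, 14 targets of the integrated stress response, had 3 that rose and a median of 0.01. This was 21.4% higher, beside 5.07% of all tested genes. Asns, asparagine synthetase, rose by 1.14 ± 0.27 (0.47 with the neutrophil and erythroid level), and Ppp1r15a, which directs dephosphorylation of the factor eIF2 alpha, by 1.56 ± 0.32. In Ppp1r15a the HEM values of 11636 to 44182 lay above the WT values of 4327, 3838, 8859 and 7222, with HEM 11 far above the rest.

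Outside these lists, several lower genes had p-values near that of Ndufa1. Rnf7, a RING subunit of cullin ubiquitin ligases, ran from 6374 to 8387 in HEM and was 10357, 13999, 11886 and 11106 in WT, a difference of -0.73 ± 0.09. Bod1, a regulator of chromosome attachment in mitosis, fell by 0.78 ± 0.10, and Coprs, which recruits the arginine methyltransferase PRMT5 to chromatin, by 0.76 ± 0.10, with HEM values of 1041 to 1222 against 1504, 2200, 1871 and 2038. Each of these groups stood apart without overlap. Asna1, which inserts tail-anchored proteins into membranes, fell by 0.62 ± 0.08, and Pepd, a dipeptidase that frees proline, by 0.64 ± 0.09. Pebp1, an inhibitor of the Raf kinase, ran from 15775 to 25876 in HEM and was 28347, 41200, 33704 and 36949 in WT, a difference of -0.91 ± 0.12. Gnmt, a methyltransferase that uses S-adenosylmethionine, fell by 1.20 ± 0.16, and Fabp3, a carrier of fatty acids whose exons are overlapped for 19.6% of their bases, by 1.27 ± 0.18.

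Choroid plexus genes were among the most abundant transcripts and were lower in HEM. Of 16 markers of this epithelium, which makes cerebrospinal fluid, 14 fell, with a median of -0.88, and for 11 of 16 the groups did not overlap (4.1% of all genes had HEM below WT in this way). Ttr, the thyroxine carrier secreted into that fluid, ran from 1278790 (HEM 3) to 2470920 (HEM 7) in HEM and was 3199690, 3819640, 3701300 and 3731880 in WT, a difference of -0.93 ± 0.21. Enpp2, which encodes autotaxin and lies at mm10 chr15:54838901-54952892, ran from 615496 (HEM 3) to 1090270 (HEM 7) in HEM and was 1398610, 1641450, 1725190 and 1596270 in WT, a difference of -0.94 ± 0.19. Otx2, a transcription factor of this epithelium, fell by 1.12 ± 0.20. HEM 3 was lowest and HEM 7 highest for all 3 genes. The list had a median of -0.79 with the neutrophil and erythroid level.

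Like Ndufa1 (-0.97 to -0.73) and the complex III median (-0.66 to -0.41), several genes with large falls had smaller differences with the choroid plexus level. All of these genes but Igf2 lie outside the lists. Apart from Igf2, they are among the 12 largest falls of genes with a mean log2 level of at least 6 and no predicted or clone name, which leaves out the 4 genes that fell at least 4-fold. Calml4, a calmodulin-like protein, ran from 3387 (HEM 1) to 10790 (HEM 7) in HEM and was 11586, 18736, 12872 and 14035 in WT, a difference of -1.45 ± 0.23 that was -0.60 with the choroid plexus level. Prr32 (-1.45 ± 0.29) went to -0.40 in that fit, and Cox8b, a subunit of complex IV found mainly in muscle and brown fat, went from -1.40 ± 0.30 to -0.40. Tat, tyrosine aminotransferase, had HEM values of 14.67 to 158.5 and WT values of 247.8, 235.2, 307.2 and 312.4, a difference of -1.79 ± 0.48, which was the largest fall among the named genes and was -0.52 in that fit. Esrrb, an orphan nuclear receptor, went from -1.49 ± 0.25 to -0.87, Grhl3, an epithelial transcription factor, from -1.38 ± 0.25 to -0.79, and Ins2, an insulin gene, from -1.38 ± 0.35 to -0.39. Igf2, a growth factor of the meninges and choroid plexus, ran from 40066 to 94043 in HEM and was 145669, 107848, 136606 and 184489 in WT, a difference of -1.05 ± 0.21, or -0.37 in that fit. Exons of other genes, however, cover 64.5% of the exon bases of Igf2. Igf2 was the single call among 16 genes of meningeal fibroblasts and matrix (6.25% lower, beside 7.65% of all tested genes, median -0.19).

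Of 18 genes of motile cilia, which the ependyma and the choroid plexus both bear, 3 fell. This was 16.7%, beside 7.65% of all tested genes, while the list's median was -0.10. Tekt1, of the ciliary microtubules, ran from 1060 to 2263 in HEM and was 3209, 3471, 3502 and 3357 in WT, a difference of -1.12 ± 0.19 (-0.59 with the choroid plexus level). Rsph1 and Spag6l, of the radial spoke and the central pair, fell by 0.96 ± 0.22 and 0.94 ± 0.22. Of 14 astrocyte genes 2 fell (14.3%, beside 7.65% of all tested genes, median -0.07). Clu, the extracellular chaperone clusterin, which the choroid plexus also makes, ran from 101487 to 180551 in HEM and was 183965, 199550, 210295 and 210732 in WT, a difference of -0.61 ± 0.13 that was -0.18 with the choroid plexus level.

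Neuron, oligodendrocyte and endothelial genes gave no calls by limma. The 20 neuron and synapse genes had a median of 0.12, which was 0.13 with the neutrophil and erythroid level and -0.61 with the choroid plexus level, and 1 had an unadjusted p under 0.05. DESeq2 called 1 of them, and edgeR and limma voom called 0. Their share of all values was highest in HEM 1 at 0.230% and 0.0387% at the lowest, in HEM 13, against 0.0366% to 0.0901% in WT. Oligodendrocyte genes had a median of 0.14 and endothelial genes of 0.20, with 1 and 0 genes at an unadjusted p under 0.05 and 0 calls by the other tools. The oligodendrocyte median was -0.18 and -0.52 with the 2 covariates. Of 12 genes of pericytes and smooth muscle 1 rose (8.33%, beside 5.07% of all tested genes, median 0.32). It was Tagln, an actin-binding protein, by 1.23 ± 0.38, while edgeR and limma voom called 0 of the 12 and DESeq2 called 2. The 9 hormone genes of the anterior pituitary had the lowest median of any list, -2.42, with 0 calls by limma, edgeR, DESeq2 and limma voom and 1 gene at an unadjusted p under 0.05. Their share ran from 0.00139% (HEM 13) to 0.175% (HEM 12) in HEM and from 0.00392% to 0.103% in WT. For Lhb, a gonadotropin subunit, HEM 12 at 1616 stood apart from the other HEM libraries, from 334.6 to 660.7, and WT had 847.6, 1037, 1942 and 908 (difference -1.01 ± 0.46, adjusted p = 0.176).

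Immediate early genes, which cells switch on within minutes of a stimulus, were higher in HEM. Of 10 AP-1 subunits 6 rose (median 1.37), of 11 Egr, Nr4a and Klf regulators 8 rose (median 0.91), and of 15 Ier, Dusp and mRNA decay feedback genes 10 rose (median 1.37). Over all tested genes 5.07% were higher. With the neutrophil and erythroid level the medians were 1.5, 0.92 and 1.10, and with the choroid plexus level 1.19, 1.16 and 1.13. Fosb, an AP-1 subunit at mm10 chr7:19302696-19310051, ran from 25860 (HEM 3) through a median of 31914 to 78026 (HEM 11), against 2850, 624.4, 19047 and 7813 in WT. The WT libraries were widely spread, and each lay below all HEM libraries, with a difference of 3.25 ± 0.58. Fos ran from 72277 to 194260 in HEM and was 21368, 8319, 55340 and 37570 in WT, a difference of 2.08 ± 0.38. WT 7 was lowest and WT 8 highest of the WT libraries for both.

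Atf3, a repressor of the same family, ran from 4054 to 27904 in HEM and was 629.9, 644.9, 3332 and 1246 in WT, a difference of 2.97 ± 0.50. Egr2, a zinc finger regulator of myeloid cells, ran from 1240 to 7335 in HEM and was 153.3, 211.8, 825.9 and 406.5 in WT, a difference of 2.95 ± 0.42. HEM 11 was highest and HEM 12 lowest of the HEM libraries for both, and the groups did not overlap. Klf4 and Klf10, zinc finger factors, rose by 1.25 ± 0.22 and 0.88 ± 0.17. Ier3, a survival factor, rose by 1.59 ± 0.28, with HEM values of 7918 to 17689 against 3033, 1831, 6004 and 4806. Dusp5, a nuclear phosphatase of ERK, rose by 1.55 ± 0.27 and Btg1, an antiproliferative regulator, by 0.88 ± 0.15. For Dusp5 the difference was 0.81 with the neutrophil and erythroid level, and exons of another gene cover 22.1% of its exon bases.

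The half-site TGACGT of the cyclic AMP response element, which CREB and ATF factors bind, is known in immediate early promoters. The promoters of Egr2 and Atf3 are shown as examples that were picked, among the called immediate early genes, for holding it. Each is the 250 bases before the gene's start in RefSeq on GRCm38.p6, Egr2 at chr10:67537619-67537868 on the plus strand and Atf3 at chr1:191183334-191183583 on the minus strand, 5′ to 3′ with the match in capitals.
Egr2: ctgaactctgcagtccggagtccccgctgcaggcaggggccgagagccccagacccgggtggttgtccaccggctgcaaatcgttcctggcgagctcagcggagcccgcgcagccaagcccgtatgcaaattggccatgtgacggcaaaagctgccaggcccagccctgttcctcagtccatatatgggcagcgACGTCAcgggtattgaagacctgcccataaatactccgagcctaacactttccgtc
Atf3: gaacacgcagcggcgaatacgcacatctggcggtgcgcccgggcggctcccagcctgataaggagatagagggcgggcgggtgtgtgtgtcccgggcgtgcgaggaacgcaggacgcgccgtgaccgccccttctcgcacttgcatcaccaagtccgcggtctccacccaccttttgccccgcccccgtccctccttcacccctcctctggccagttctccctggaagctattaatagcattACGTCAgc
Both matches read on the opposite strand, with first bases at -56 in Egr2 and -8 in Atf3. Of the 36 genes in the 3 immediate early lists 28 had a promoter in the table, and 10 of these (35.7%) held TGACGT on either strand. The share was 9.91% among all 14425 tested genes with a promoter, 10.4% among genes called higher and 10.1% among genes called lower. This motif too was chosen with the results known.

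Some regulators of NF-kB, chemokines and cytokines rose, where 5.07% of all tested genes were higher. Of 13 NF-kB genes 4 rose (median 0.27, or 0.14 and 0.13 with the 2 covariates), all of them regulators rather than subunits. Nfkbid, an atypical IkB protein of the nucleus, ran from 2761 to 17617 in HEM and was 833.6, 1014, 1799 and 1352 in WT, a difference of 2.23 ± 0.37. Nfkbiz, of the same family, rose by 1.97 ± 0.33 and Tnfaip3, the ubiquitin editing enzyme A20, by 1.5 ± 0.28. Of 20 chemokine ligands 7 rose (median 0.44, or 0.65 and 0.33 with the 2 covariates). Ccl4 ran from 2087 to 12124 in HEM and was 559.2, 677.5, 1399 and 850.3 in WT, a difference of 2.27 ± 0.39. Ccl3, a related chemokine, rose by 1.82 ± 0.34, and the neutrophil attractant Cxcl2 by 2.47 ± 0.43. HEM 11 was highest and HEM 12 lowest for Ccl3 and Ccl4.

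Of 20 cytokine and receptor genes 6 rose (30%, beside 5.07% of all tested genes). Their median of 0.49 was 0.33 and 0.22 with the 2 covariates. Tnf, at mm10 chr17:35199381-35202007, ran from 4024 (HEM 13) through a median of 5171 to 20972 (HEM 11), against 783.2, 484.4, 2246 and 1323 in WT, a difference of 2.70 ± 0.48 (2.94 with the neutrophil and erythroid level and 2.27 with the choroid plexus level). Osm, oncostatin M, rose by 1.95 ± 0.34 and was 1.28 with the neutrophil and erythroid level. Il10, an anti-inflammatory cytokine, was scarce, with values of 23.51 to 68.18 in HEM and of 0, 0, 15.06 and 3.033 in WT. Its fitted difference of 3.83 ± 0.59 rests on these few WT reads. Pmaip1, which encodes the cell death protein Noxa, ran from 1089 to 1510 in HEM and was 529.8, 539.4, 1015 and 415.6 in WT, a difference of 1.16 ± 0.18.

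**Figure D5:**
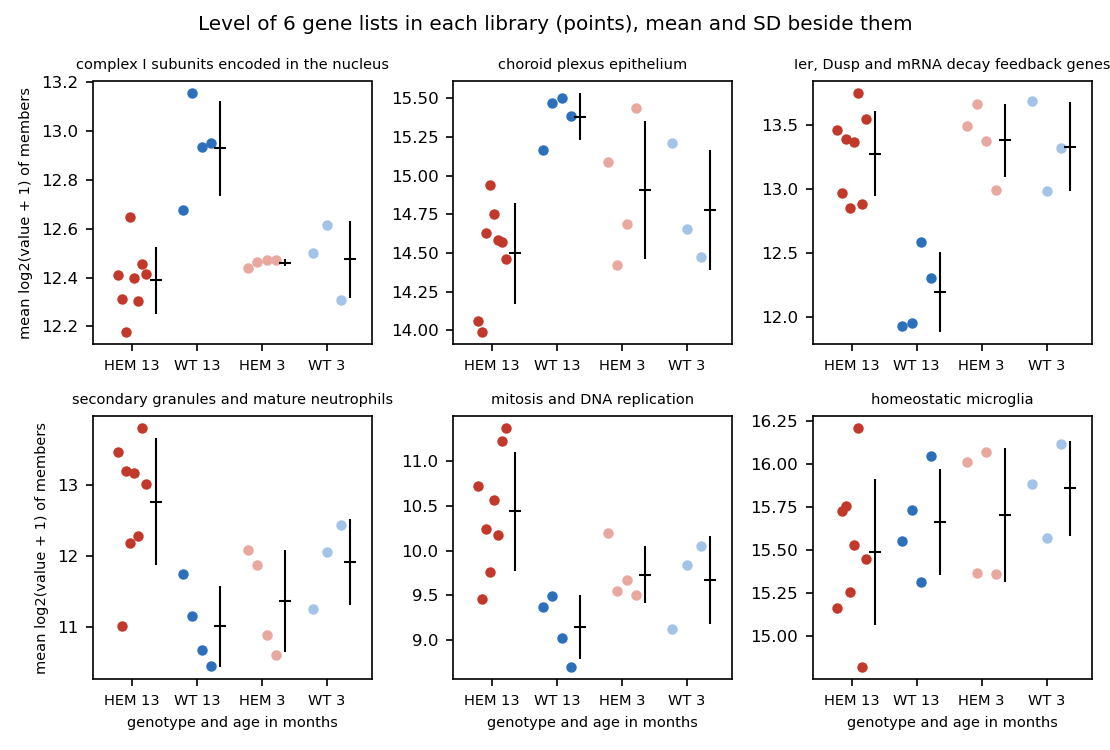
For 6 gene lists, each point is the mean log2(value + 1) over the tested members in 1 library, in HEM and WT at 13 and at 3 months, and the bar beside the points gives the mean and SD of the group. WT at 13 months is the highest group for complex I (12.93 ± 0.20, SD, n = 4) and for the choroid plexus, and the lowest for the feedback genes and mitosis. HEM at 13 months is the highest for mature neutrophil genes and mitosis, and the 4 groups overlap for homeostatic microglia.

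Interferon-induced and antigen presentation genes were changed in part. Of 25 interferon-induced genes 6 rose (24%, beside 5.07% of all tested genes) and 1 fell (4%, beside 7.65%). Their median was 0.53 (0.22 with the neutrophil and erythroid level, 0.16 with the choroid plexus level). Zbp1, a sensor of Z-form nucleic acids, ran from 670.4 to 2226 in HEM and was 496.9, 508.6, 410.3 and 344.8 in WT, a difference of 1.18 ± 0.30. Slfn2, a Schlafen protein of leukocytes, rose by 0.99 ± 0.21. The gene that fell was Ifi27, of the mitochondrial membrane, by 0.60 ± 0.11, with HEM values of 15718 to 20443 against 24586, 30705, 24601 and 27693. Of 10 genes of MHC class II presentation 4 rose (40%, median 0.42, or 0.26 and 0.13 with the 2 covariates). H2-Aa, an alpha chain of class II, ran from 13909 to 19657 in HEM and was 9607, 12778, 9319 and 9722 in WT, a difference of 0.67 ± 0.14, or 0.65 and 0.85 with the 2 covariates.

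Of 17 complement genes 2 rose (11.8%, beside 5.07% of all tested genes), with a median of 0.06. C3, the component on which the pathways converge, ran from 3725 (HEM 3) to 15356 (HEM 12) in HEM and was 3391, 2637, 1705 and 1324 in WT, a difference of 1.90 ± 0.40. HEM 3 and HEM 12 were also the lowest and highest HEM libraries in mature neutrophil markers. With the neutrophil and erythroid level, which follows the genotype closely, C3 was at 0.17. The part of neutrophil content in C3 was not tested. Cfp, properdin, which neutrophils and monocytes store, rose by 0.77 ± 0.23 and was -0.16 in that fit, and it kept its call in 5 of the 12 fits that left out a library.

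The microglia lists held few calls by limma. Of 20 homeostatic markers 2 fell (10%, beside 7.65% of all tested genes), with a median of -0.18. That median was 0.27 with the neutrophil and erythroid level. Their mean level was 15.49 ± 0.42 (SD, n = 8) in HEM and 15.66 ± 0.31 (SD, n = 4) in WT, with full overlap. Sparc, a matrix protein of microglia and vessels, ran from 157475 to 234147 in HEM and was 259517, 270871, 238308 and 296857 in WT, a difference of -0.40 ± 0.13 that was -0.08 with the neutrophil and erythroid level. Slc2a5, a fructose transporter, fell by 1.03 ± 0.33. It kept its call in 3 of the 12 fits that left out a library, and Sparc in 4 of 12. Of 23 genes of disease-associated microglia 2 fell (8.70%, beside 7.65% of all tested genes, median -0.17). Among them was the tetraspanin Cd63, by 0.43 ± 0.10, with HEM values of 26191 to 29660 against 38384, 40271, 42007 and 32552. In that list 12 genes had an unadjusted p under 0.05, and edgeR, DESeq2 and limma voom called 3, 7 and 7. Of 14 genes of border-associated macrophages 1 rose (7.14%, beside 5.07% of all tested genes). It was Ms4a6b, by 0.67 ± 0.20, and it kept its call in 5 of 12 such fits. There edgeR called 1 gene, DESeq2 5 and limma voom 3, with 6 at an unadjusted p under 0.05.

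Granulocyte genes rose by large amounts. All 10 tested primary granule genes of granulocyte precursors rose (median 3.02) and 14 of 16 genes of secondary granules and mature neutrophils (median 1.85). Elane, neutrophil elastase, lies at mm10 chr10:79886247-79888215. Its values ran from 736.6 (HEM 3) through a median of 5418 to 18193 (HEM 13), against 523.5, 442.4, 586.5 and 171.9 in WT, with no overlap and a difference of 3.57 ± 0.76. Mpo, myeloperoxidase, rose by 3.23 ± 0.74, and Ms4a3, a membrane protein of granulocyte and monocyte progenitors, by 3.37 ± 0.79. Both overlapped between the groups, through HEM 3, and exons of another gene cover 15.0% of those of Mpo. Gfi1, a transcriptional repressor found in granulocyte precursors, and Mgst2, a leukotriene synthase, rose by 2.17 ± 0.42 and 1.54 ± 0.30. Of the secondary granule genes Camp, the cathelicidin precursor, rose by 2.42 ± 0.53, and Ngp ran from 12358 to 115275 in HEM and was 17858, 11973, 7926 and 7724 in WT, a difference of 2.24 ± 0.50.

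With the neutrophil and erythroid level in the model the primary granule median was -0.00 and the secondary granule median -0.27, a level that holds markers of the second list itself. With the choroid plexus level they were 2.62 and 1.53. No tested member of either list was at 0 in any library. HEM 3 had the lowest level of the secondary list among HEM, 11.01, inside the WT range of 10.45 to 11.75, and the other HEM libraries reached 13.80. The part of marrow or blood content in these differences was not tested.

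Eosinophil genes were also higher in HEM. Of 10 genes 6 rose (median 2.30, and 1.17 with the neutrophil and erythroid level). Prg2, the major basic protein, ran from 1458 (HEM 3) to 26010 (HEM 13) in HEM, with a median of 6277, and was 361.2, 168.9, 53.46 and 2169 in WT, so that WT 9 overlapped HEM. Its difference was 4.37 ± 0.83. Epx, eosinophil peroxidase, rose by 4.31 ± 0.79, with WT 9 again highest of WT at 653.2. Ear6, an eosinophil ribonuclease, ran from 269.5 to 2326 in HEM and was 81.19, 51.33, 3.012 and 115.3 in WT, a difference of 4.20 ± 0.71. Of 10 mast cell and basophil genes 1 rose (10%, beside 5.07% of all tested genes). It was Cpa3, a carboxypeptidase of their granules, by 1.48 ± 0.40. The median of the 10 was 1.35, or 0.11 and 0.48 with the 2 covariates, and all were above 0. An unadjusted p under 0.05 was found for 9 of them, and edgeR, DESeq2 and limma voom called 1, 4 and 2. Mcpt2, a mast cell protease outside that list, rose by 3.26 ± 0.97, with HEM 1 at 1362 and the other HEM libraries between 31.2 and 493.8, and it kept its call in 7 of the 12 fits that left out a library.

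Monocyte, erythroid and platelet genes rose as well. Of 12 monocyte genes 8 rose (median 1.55, and 0.06 with the neutrophil and erythroid level). Ly6c2, of inflammatory monocytes, ran from 3187 to 10681 in HEM and was 1881, 2685, 2065 and 1064 in WT, a difference of 1.65 ± 0.31, and Plac8 rose by 1.87 ± 0.41. Of 13 erythroid genes 5 rose and 1 fell (median 1.04). Slc4a1, the anion exchanger of red cells, rose by 2.04 ± 0.46 and Rhag, of the Rhesus complex, by 2.76 ± 0.65. With the neutrophil and erythroid level they were at 0.15 and 0.08. That level holds both genes, so their smaller differences follow in part from how it was made. Of 12 platelet and megakaryocyte genes 7 rose (median 1.16). This list kept a median of 0.99 with the neutrophil and erythroid level and had 0.27 with the choroid plexus level. Itga2b, the platelet integrin, ran from 1879 to 4413 in HEM and was 1062, 867, 1055 and 1019 in WT, a difference of 1.38 ± 0.27. Gp5, a subunit of the platelet receptor for von Willebrand factor, rose by 2.31 ± 0.45.

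Lymphoid genes were led by antibody transcripts. Of 16 B and plasma cell genes 3 rose (18.8%, beside 5.07% of all tested genes). Their median was 0.70, and -0.48 with the neutrophil and erythroid level. Jchain, which joins IgA and IgM, ran from 747 (HEM 3) through a median of 3323 to 4106 (HEM 8), against 507.4, 209.1, 671.6 and 513.6 in WT, a difference of 2.49 ± 0.46 that was 2.41 with the neutrophil and erythroid level. Igha, the IgA heavy chain, ran from 2201 to 23942 in HEM and was 3168, 924.9, 3773 and 74.82 in WT, a difference of 3.26 ± 0.86. Ighg1, an IgG heavy chain, ran from 8.46 to 1734 in HEM and was 25.9, 13.07, 0 and 25.28 in WT, and its difference of 4.90 ± 1.54 kept its call in 2 of the 12 fits that left out a library. Of 19 T and NK cell genes 6 rose and all 19 were above 0 (median 1.16, or 1.41 and 0.59 with the 2 covariates). Nkg7, of cytotoxic granules, rose by 1.49 ± 0.30 and the receptor Klrd1 by 1.13 ± 0.31. HEM 3, lowest in neutrophil markers, was the highest library for both.

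Cell division genes were higher in HEM. Of 25 genes of mitosis and DNA replication 18 rose and all 25 were above 0, with a median of 1.53. Mki67, a marker of cycling cells, ran from 2545 (HEM 3) through a median of 6537 to 14706 (HEM 13), against 1755, 2075, 1455 and 957.5 in WT, a difference of 2.12 ± 0.41. Top2a rose by 1.88 ± 0.40, Smc4, a condensin subunit, by 1.09 ± 0.17 and the nuclease Dna2 by 1.16 ± 0.18. The list had a median of 0.08 with the neutrophil and erythroid level, where Mki67 stood at 0.42. Replication-dependent histones did not share these calls. Of 50 tested, 1 rose, Hist1h2ao by 1.78 ± 0.45 from WT values of at most 24.26, and 1 fell, Hist1h2bc by 0.70 ± 0.17, with a median of -0.05. Of 14 bone genes 2 rose (14.3%, beside 5.07% of all tested genes, median 0.19). They were the osteoblast and marrow regulator Runx2, by 1.02 ± 0.20, and the matrix protein Ibsp, by 3.95 ± 1.08. Ibsp reached 834.9 in HEM 13, lay between 8.665 and 213.2 in the other HEM libraries, and was at most 6.023 in WT.

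Further genes with small p-values among those that rose are known from leukocytes or platelets. Spn, the sialophorin CD43, ran from 3327 to 6114 in HEM and was 1497, 2088, 1606 and 1235 in WT, a difference of 1.49 ± 0.23. Il18rap, a chain of the interleukin 18 receptor, ran from 1511 to 2434 in HEM and was 869.3, 877.3, 728 and 573.3 in WT, a difference of 1.44 ± 0.22. The kinase Pim1, with 14.5% of its exon bases overlapped, rose by 1.72 ± 0.27, the adaptor Pstpip1 by 1.23 ± 0.19 and Rgs18, a regulator of G protein signalling in platelets, by 1.56 ± 0.24. F2rl2, a thrombin receptor of platelets, ran from 91.18 (HEM 7) to 213.5 in HEM and was 36.4, 55.06, 34.63 and 30.33 in WT, a difference of 2.11 ± 0.31. In that order, these 6 genes were at 0.88, 0.89, 0.89, 0.63, 0.78 and 1.45 with the neutrophil and erythroid level.

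Genes of DNA methylation, a mark the study also profiled, changed in part. Of 17 writers, erasers and readers 4 rose (23.5%, beside 5.07% of all tested genes) and 1 fell (5.88%, beside 7.65%), with a median of 0.18. Tet2, which oxidizes methylcytosine, ran from 3570 to 5197 in HEM and was 3173, 2537, 2814 and 2910 in WT, a difference of 0.57 ± 0.10, or 0.64 with the neutrophil and erythroid level and 0.41 with the choroid plexus level. Dnmt3b, a methyltransferase, rose by 0.58 ± 0.13 and Mbd3, of the NuRD complex, fell by 0.42 ± 0.07. Of 4 Gadd45 genes, linked to demethylation and stress signalling, 2 rose (median 0.96, or 0.37 and 0.81 with the 2 covariates), Gadd45a by 1.60 ± 0.27 (0.60 with the neutrophil and erythroid level) and Gadd45b by 1.63 ± 0.30 (1.64). Of 17 clock genes 1 rose (5.88%, beside 5.07% of all tested genes). It was the repressor Bhlhe40, by 0.49 ± 0.15, and the median of the list was -0.12. Bhlhe40 kept its call in 7 of the 12 fits that left out a library. Of 21 cholesterol genes 3 fell, among them Mvk, mevalonate kinase, by 0.37 ± 0.08. This was 14.3%, beside 7.65% of all tested genes, and the median of -0.11 was 0.00046 with the choroid plexus level. Of 76 cytosolic ribosomal protein genes limma called 0, with a median of -0.09. At an unadjusted p under 0.05 there were 4, and edgeR, DESeq2 and limma voom called 0, 1 and 1. Rpl41 was the nearest to a call, at -0.39 ± 0.13 (adjusted p = 0.0554).

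The 2956 genes were then set beside the 3-month groups. At 3 months limma called 0 genes between the genotypes, with 876 at an unadjusted p under 0.05, and 1456 of the 2956 genes (49.3%) had the same sign at both ages. Among the 4 groups, WT at 13 months had the highest mean for 1716 of the 1777 lower genes (96.6%) and the lowest for 1089 of the 1179 higher genes (92.4%). Over all tested genes these shares were 29.0% and 32.1%. HEM at 13 months was the lowest group for 1319 of the lower genes (74.2%) and the highest for 983 of the higher genes (83.4%), against 24.1% and 27.0% of all tested genes. The choice of genes by this contrast fixes part of these shares. For complex I the mean level was 12.39 ± 0.14 in HEM (SD, n = 8) and 12.93 ± 0.20 in WT (SD, n = 4) at 13 months, and 12.46 ± 0.0147 and 12.47 ± 0.16 at 3 months (SD, n = 4 and 3).

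The test of the difference between the genotype effects at the 2 ages gave 0 calls in limma, with 3508 genes (15.1%) at an unadjusted p under 0.05. edgeR also called 0, while DESeq2 called 954 and limma voom with quality weights 873. Leaving out HEM 7 gave 330 calls and leaving out WT 6 gave 293, while leaving out HEM 1 or WT 9 gave 2 and 1. For Ndufa1 the difference at 3 months was -0.07 and the change between the ages was -0.90 ± 0.17 (adjusted p = 0.0736). For Fosb the 3-month difference was 0.01 and the change 3.25 ± 0.93 (adjusted p = 0.116). Ccl4 and Tnf stood at 1.71 and 1.16 at 3 months, where limma called 0 genes. For Tnf the 3-month groups overlapped, with 3281 to 18045 in HEM and 3205 to 3671 in WT. For Ccl4 they did not, with 4491 to 14208 and 1650 to 3698.

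The called genes were mostly protein-coding. Of 16802 protein-coding genes tested 1726 fell (10.3%) and 1008 rose (6.0%). Long intergenic RNAs had 17 of 1086 that fell and 35 that rose, and processed pseudogenes had 5 and 28 of 1311. The 1190 transcript models of the TEC class had 27 that rose and 0 that fell. The median exon length was 3879 bases for the genes that rose, 3303 for those that fell and 3261 for all tested genes. Across 23167 genes, which are not independent replicates, Spearman's rho between exon length and the difference was -0.06.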

How the data were processed

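RNA of microglia-enriched brain homogenate from 19 mice was sequenced, and 12 libraries at 13 months were compared. The authors deposited a signal per gene, the read count divided by 1 size factor per library. Trimmomatic, HISAT2, featureCounts, DESeq2 and the build mm10 are named, per the submitters' processing notes, while versions, annotation and strand setting are not given in the sources used here. Values were whole multiples of 1 step per library (100% of values within 0.01 reads), so read counts were recovered for alternatives. Differences were fitted with limma-trend 3.58.1 (R 4.3.3, robust) on log2(value + 1) over the 4 groups, with Benjamini-Hochberg adjustment over the 23242 genes with a value of 10 or more in 3 of the 12 libraries, and called at an adjusted p under 0.05. Covariates were the mean log2 level of the mature neutrophil and erythroid lists or of the choroid plexus list. Alternatives were edgeR 4.0.16 and DESeq2 1.42.0 on the recovered counts, limma voom, other pseudocounts, filters and scalings, thinned reads, a replicate block and leaving out libraries. On simulated data of 22601 genes for this comparison, 67, 67 and 66 genes were changed 1.5-fold, 2-fold and 4-fold. Of these, 32.8%, 67.2% and 98.5% were called, and 13 genes that had not been changed were called as well. Named genes were those of smallest p and largest change in each direction, the smallest p of each list and genes near Ndufa1, less some not printed. The members and lists were chosen with earlier results of these data known. The numbers in the titles were not used as pairs. The series' design counts 1 mouse per library.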

Additional observations from a re-analysis of the deposited data

Results flagged for a closer look

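In 36 of 296 groups of 4 or 8 libraries, 1 library stood apart from the others of its group by Dixon's gap at the 95% level, where chance alone marks about 1 in 20. HEM 7 held 11 of these and HEM 11 held 9. In HEM 7 the values nearest to WT were Sdha at 30384, Atp5h at 17813, Idh3a at 13322, Clybl at 2229, Pebp1 at 25876, Asna1 at 5563, Calml4 at 10790, Prr32 at 5872, Grhl3 at 283.3 and Clu at 180551, each the highest of the HEM libraries, and F2rl2 at 91.18, the lowest. In HEM 11 the highest values were Atf3 at 27904, Egr2 at 7335, Nfkbid at 17617, Tnfaip3 at 13091, Ccl3 at 25312, Ccl4 at 12124, Tnf at 20972, Ppp1r15a at 44182 and Gadd45b at 8188. HEM 13 stood high for Zbp1 at 2226, Hist1h2ao at 169.8 and Ibsp at 834.9, HEM 1 for Mcpt2 at 1362 and Rgs18 at 1538, HEM 3 for Thy1 at 37356 and HEM 12 for Lhb at 1616. Among WT, WT 7 stood high for mt-Nd4 at 819340, H2-Aa at 12778 and Gfi1 at 316.4, WT 9 high for Prg2 at 2169 and Epx at 653.2 and low for Btg1 at 11369, WT 8 high for Bhlhe40 at 6556, and WT 6 high for Nkap at 2405 and low for Spag6l at 2455. The source of these values was not tested.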

How the results depend on the processing

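The 2956 calls were 2919 with edgeR, 4052 with DESeq2, 3588 with limma voom, 2350 with the 13-month groups alone, 2271 without a filter and 2923 with thinned reads. DESeq2 called 1785 genes higher, against 1179. Leaving out 1 library gave 1729 to 3337 calls, 628 to 1358 higher and 977 to 1979 lower, and 0 to 330 for the difference between the ages, for which DESeq2 gave 954 and limma voom 873. With the animal number as a replicate block 0 genes were called in either direction (2674 at an unadjusted p under 0.05, with 5 residual degrees of freedom against 15). The numbers mark no stated pairing, and the 2 same-numbered pairs at 13 months had correlations of deviations of 0.113 and 0.137. With either covariate 0 genes were called, but both levels follow the genotype closely, so these fits cannot separate the levels from the genotype. The neutrophil and erythroid level includes Camp, Ngp and the rest of the secondary granule list, so their values in that fit follow in part from how it was made. Of 3847 values of named genes over the alternatives, 3311 kept their direction and side of the threshold, 511 lost their call, 13 gained one and 12 changed sign, and the cause was not tested. With the neutrophil and erythroid level the values that changed sign were Cox7a2l at 0.0577, Cfp at -0.16, Ms4a3 at -0.0683, Camp at -0.12 and Ngp at -0.16, and, among lists with calls, the medians of homeostatic microglia at 0.27, primary granules at -0.00301, secondary granules at -0.27, B cells at -0.48, bone at -0.0461 and clock genes at 0.17. With the choroid plexus level they were Cox7a2l at 0.0398, Rnf113a1 at 0.00079 and Lhb at 0.35, and the medians of heat shock at 0.0373, bone at -0.0202, cilia at 0.0167, border-associated macrophages at 0.13, replication-dependent histones at 0.23 and cholesterol genes at 0.00046. Among lists without calls, the oligodendrocyte median was -0.18 and -0.52 with these levels, that of oligodendrocyte precursors -0.00811 and -0.0945, and the neuron median -0.61 with the second. With the replicate block the bone median was -0.15 and the clock median 0.13. Without HEM 1 and HEM 11 Cox7a2l was 0.0547 and the cilia median 0.0356, and with thinned reads Rnf113a1 was 0.0403. Leaving out 1 library, Cox7a2l ran from -0.181 (WT 6) to 0.0740 (WT 7; 0.0245 without HEM 1), the cilia median from -0.23 (WT 9) to 0.0252 (WT 6) and the meninges median from -0.29 (WT 7) to 0.0188 (WT 6). With 4 WT libraries, the simulation called 32.8% of 1.5-fold changes, which limits what a missing call shows. It changed only genes with ample reads, and far fewer than were called in the data, so its rates need not carry over.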
